A study of Mus musculus with 24 samples.

Results

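The genes described here encode the constant regions of the T cell receptor chains. They were found on the array by name (Trac, Trbc1, Trbc2, Tcra, Tcrb, Tcrg or Tcrd) or by a description naming an alpha, beta, gamma or delta constant region. This gave 5 probes out of 55681 non-control probes: 1 for Trac, 1 for Trbc1, 1 for Trbc2, 1 described as a gamma constant region and 1 named Tcra. No probe for the delta constant region was found in this way. Each of the 5 probes was printed as 1 spot, so a value below is 1 spot on 1 array.

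RNA of sorted mouse lymphoid cells was measured on 24 Agilent single-colour arrays, 1 per sample. From thymus labelled transgenic and Foxn1-deficient (-/-), called tg, came CD4 CD8 double-positive (DP) thymocytes (n = 4) and B cells without surface IgM (n = 2). Neither the transgene nor its promoter is named in the labels, nor is it said whether both tg cell types came from 1 line. From thymus heterozygous for Foxn1 (+/-), called wt, came double-negative stage 3 (DN3), DP, CD4 single-positive (SP4) and CD8 single-positive (SP8) thymocytes (n = 3 each). From wild-type fetal liver came B cells with surface IgM (IgM+, n = 3) and without it (IgM-, n = 3); their Foxn1 genotype is not labelled. Age, sex and the number of animals per sample are not given in the labels. For SP4 the cell type field lists SP8 cells as well, and the title was followed. Samples are named by the number in their title; wt DP 3 and 3A share a number, as do tg DP 6, 6A and 6B, and nothing says that replicates came from separate animals. The p-values therefore rest on a spread between samples that may in part be technical.

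A T cell receptor is a pair of chains, alpha with beta or gamma with delta. Each chain gene joins variable and joining segments, cut and pasted by the Rag recombinase, to a constant region that anchors the chain in the membrane and carries its contacts with the CD3 proteins. The beta chain is rearranged first, at the DN stages, and the alpha chain at the DP stage, while gamma and delta genes rearrange at the DN stages. Constant regions can be transcribed before their locus is rearranged, so a signal from a constant region does not by itself show a complete chain.

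The probes are shown because what each one can bind decides what its value means. Coordinates come from the annotation in the array files (mm9, plus strand), and every probe is 60 bases long. The Trbc1 probe lies at chr6:41489287-41489346 and skips 0 genomic bases, so it does not require a spliced transcript. Whether all of it lies in an exon was not checked. The Trbc2 probe covers chr6:41497058-41497622, a span of 565 bases, so it skips 505 genomic bases and matches a spliced transcript. The Trac probe covers chr14:54841802-54842701, a span of 900 bases with 840 skipped. The sequences, with no capitals marked for these, are as follows.
Trbc1: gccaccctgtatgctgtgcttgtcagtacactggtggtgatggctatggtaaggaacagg
Trbc2: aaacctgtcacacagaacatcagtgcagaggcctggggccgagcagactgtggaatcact
Trac: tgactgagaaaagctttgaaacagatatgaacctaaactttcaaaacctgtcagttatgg
The Trbc1 and Trbc2 probes share no run longer than 5 bases. As background, both mouse beta constant genes are nearly identical in their coding sequence, so RNA of either gene may bind either probe, and the names are those of the array.

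The gamma constant probe lies at chr13:19444153-19444212, and the array does not say which of the gamma constant genes it represents. A gamma constant gene also stands on the array under a predicted-gene description that the rule does not reach. RefSeq's mouse gene table (GRCm38.p6, used for names only) lists that predicted gene, Gm17004, with Trgc1 as another name. Its probes lie at chr13:19308428-19308487 and chr13:19306165-19306224, and they are described below as Trgc1, outside the 5 chosen probes. The gamma constant probe and the first Trgc1 probe both end in the letters of a stop codon, TAA. Set base against base, they are the same at 33 of 60 positions, which the capitals mark in those sequences.
gamma constant: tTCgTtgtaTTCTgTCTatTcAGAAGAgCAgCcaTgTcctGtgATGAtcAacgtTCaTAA
Trgc1, probe ending in a stop codon: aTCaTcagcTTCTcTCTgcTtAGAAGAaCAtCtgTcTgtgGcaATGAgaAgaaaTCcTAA
Trgc1, other probe: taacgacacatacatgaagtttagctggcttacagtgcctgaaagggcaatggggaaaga
The Tcra probe stands for a cDNA clone at chr14:54431211-54431270, upstream of the Trac probe on the same strand. Its 60 bases hold a stop codon in each of the 3 forward reading frames, while each of the 6 sequences printed above has at least 1 forward frame without one. Its description names no constant region, so it was chosen by its gene name alone.

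Values are log2 of the processed signal relative to the 75th percentile of that array, so 0 is the level of a fairly bright probe; they are given per sample and as mean ± SD. Differences are log2 as well and carry the standard error of 1 limma fit over all 24 arrays and all 52991 probes that passed a filter on dim probes, among them all 5 chosen ones. A probe is called changed at a Benjamini-Hochberg adjusted p under 0.05. Each array had 80.6% to 96.7% of its probes well above background, with tg B 23 lowest in this and in its median signal (128, against 214 to 323 on the other arrays). The arrays lay on 4 slides, and wt thymocytes and fetal liver B cells met on slide 1 alone, with 1 array each. No probe level is compared with that of another probe, and since cells were sorted in bulk, fewer cells of a type and less RNA per cell cannot be told apart.

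The first question is which constant genes separate T from B lineage cells. Trbc2, a beta constant gene, was higher in thymocytes, and it was the 1 probe of the 5 to pass the test. Trac and Trbc1 had positive differences that did not pass, the gamma constant probe differed by less than its standard error times 2, and the Tcra clone was on the B cell side. With 12 thymocyte arrays from wt thymus and 6 of fetal liver B cells, 0.0491% of 52987 probes were called, and 1 of 5 constant probes was. Higher calls were 0.0283% of all probes and 1 of 5 constant probes, lower calls 0.0208% and 0 of 5. At an unadjusted p under 0.05 the counts in either direction were 12% of all probes and 4 of 5. Of these 4, Trbc2, Trac and Trbc1 were higher in thymocytes and the Tcra clone was lower.

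Trbc2 read 1.95, 3.33 and 3.13 in wt DN3 (samples 7, 8 and 9), 0.99, 1.59 and 1.66 in wt DP (3A, 2 and 3), 3.26, 1.98 and 2.71 in SP4 (10, 11 and 12) and 2.08, 1.02 and 1.70 in SP8 (13, 14 and 15). It read -0.11, -0.38 and -1.21 in IgM+ fetal liver B cells (19, 20 and 21) and -0.27, -0.07 and -0.48 in IgM- fetal liver B cells (16, 17 and 18). Every thymocyte array was above every fetal liver B array, with the lowest thymocyte value in wt DP 3A and the highest B cell value in IgM- 17. The share of all probes that separate the lineages in this way was not counted. The difference was 2.54 ± 0.39 (2.12 ± 0.82, n = 12, against -0.42 ± 0.42, n = 6; limma adjusted p = 0.0301), or 5.81-fold. On slide 1, SP4 11 was 2.09 above IgM+ 19. With slide as a fixed block the difference was 0.31 ± 0.88 (adjusted p = 0.949), and as a random block 2.45 ± 0.43 (adjusted p = 0.124), so the call was lost in both fits. It was also lost in 8 of the 18 fits that left out 1 array, those without wt DP 3A, wt DP 2, DN3 9, SP8 13, IgM- 16, IgM- 17, IgM- 18 or IgM+ 21, with differences of 2.38 to 2.65 over all 18 fits.

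**Figure D1:**
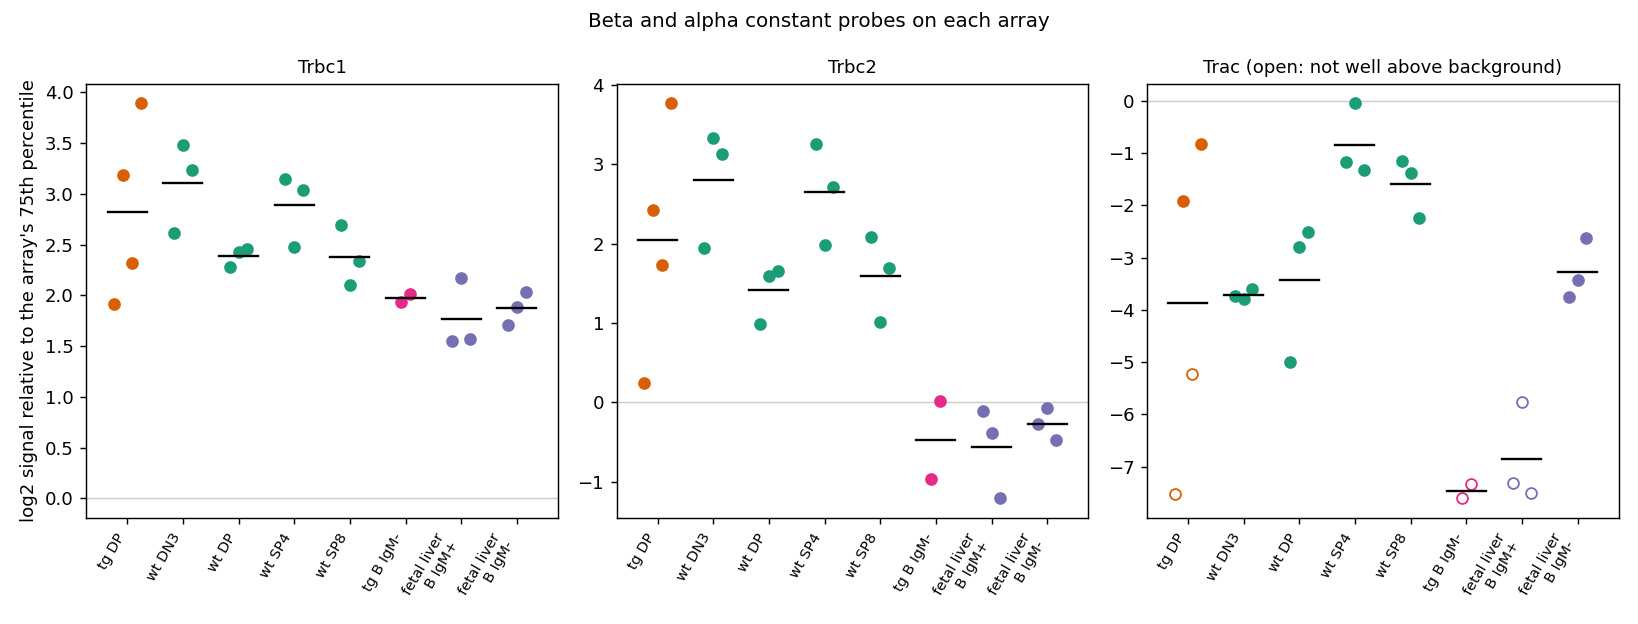
Log2 signal relative to the 75th percentile of the array (vertical axis) of the Trbc1, Trbc2 and Trac probes, with 1 point per array, a bar at the group mean, and open points where the probe was not well above background. Trbc2 lies between 0.99 and 3.33 on the wt thymocyte arrays and between -1.21 and -0.07 on the fetal liver B arrays, and Trac has open points in tg DP, tg B and IgM+ B cells.

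Trbc1, the other beta constant gene, read 2.61, 3.48 and 3.23 in DN3, 2.28, 2.43 and 2.46 in wt DP, 3.15, 2.48 and 3.04 in SP4 and 2.69, 2.10 and 2.34 in SP8. It read 1.55, 2.17 and 1.57 in IgM+ and 1.71, 1.88 and 2.03 in IgM- fetal liver B cells. The lineages overlapped through SP8 14 and IgM+ 20 only. The probe was bright in fetal liver B cells too, at percentiles 89.6 to 92.9 of all probes on those arrays. The difference was 0.87 ± 0.23 (2.69 ± 0.43 against 1.82 ± 0.25, adjusted p = 0.151).

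Trac, the alpha constant gene, ranged from -4.99 to -0.05 over the 12 thymocyte arrays (median -2.38) and from -7.50 to -2.62 over the 6 fetal liver B arrays (median -4.76). It was well above background on all 12 thymocyte arrays and on 3 of the 6 B cell arrays, the IgM- ones. The difference was 2.66 ± 0.71 (-2.40 ± 1.44 against -5.06 ± 2.09, adjusted p = 0.153), and the groups overlapped. In a fit of the compared groups alone, with the same difference, adjusted p was 0.0333, and with normexp background the difference was 1.26 ± 0.33 (adjusted p = 0.106). No array of IgM+ B cells measured Trac, so each was set to its lowest signal well above background. Against these, Trac was 27.2-fold higher in SP4, 16.2-fold in SP8, 4.56-fold in wt DP and 3.74-fold in DN3. These folds depend on the level set and are not lower limits. In IgM- B cells, which measured Trac, the mean was -3.27 ± 0.59. It lay above the means of wt DP (-3.43 ± 1.36) and DN3 (-3.72 ± 0.10). Only the SP4 and SP8 means (-0.85 ± 0.70 and -1.60 ± 0.57) were higher than in IgM- cells.

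Gamma constant signals were -0.59, -0.50 and -1.46 in IgM+ and 0.07, -0.76 and -0.48 in IgM- fetal liver B cells. They averaged -0.31 ± 0.42 in thymocytes and -0.62 ± 0.50 in fetal liver B cells, a difference of 0.31 ± 0.30 (95% interval -0.32 to 0.94, adjusted p = 0.739). The Tcra clone read 0.58, 0.52 and 0.77 in IgM+ and 0.48, 0.86 and 0.91 in IgM- cells. It was at 0.37 ± 0.22 in thymocytes and 0.69 ± 0.18 in fetal liver B cells, a difference of -0.32 ± 0.10 (adjusted p = 0.218), with overlapping groups. On slide 1 the Tcra difference was 0.15, the opposite sign.

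The proteins that assemble with the receptor chains showed no call in the same comparison. Of the 5 partners on the list, the CD3 chains Cd3d, Cd3e and Cd3g, the zeta chain Cd247 and Ptcra, the stand-in for alpha that pairs with beta at the DN3 stage, 4 were higher, with a median of 0.03 beside 0.071 over all probes. The strongest statistics were those of Cd3e at -0.25 ± 0.09 (adjusted p = 0.243) and Cd3d at 1.54 ± 0.53 (adjusted p = 0.250). Of the assembly genes, 2 of 3 were higher and none was called; Rag2, a subunit of the recombinase, was at 1.13 ± 0.91 and Rag1, the other subunit, at 0.29 ± 0.40. Of 10 T lineage markers, 8 were higher and 1, the transcription factor Tcf7, was called (4.29 ± 0.64, adjusted p = 0.0301). Its call was lost, with that of every other probe, with slide as a random block, without wt DP 3A and without IgM+ 21. The summed linear signal of these markers was 9.18 to 16.5 times the 75th percentile on wt thymocyte arrays and 8.68 to 9.87 times on fetal liver B arrays, and that of 11 B lineage markers was 41.96 to 53.25 and 42.7 to 53.12 times. In no group was a T or B lineage marker below background on every array, so these lists do not mark the sorted types by absence, and the Cd4 probe averaged 3.39 to 3.79 in each of the 8 groups, B cells included. The part of other cells in the differences was not tested.

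The segments that are joined to the constant regions were represented by 69 probes, of which 68 were tested. In thymocytes 48 of them were higher than in fetal liver B cells, with a median of 0.17 beside 0.071 over all probes, and 0 were called. By locus, 29 of 37 alpha, 16 of 23 beta, 2 of 5 gamma and 1 of 3 delta segments were higher, with medians of 0.23, 0.10, -0.29 and -0.20. The strongest statistics were those of T cell receptor delta variable 4, at 1.78 ± 0.41 (-1.76 ± 0.72 against -3.54 ± 1.31, adjusted p = 0.0985), and of T cell receptor alpha variable 15D-1-DV6D-1, at 1.12 ± 0.32 (adjusted p = 0.166). No variable or joining segment had a difference as large as that of Trbc2 or Trac. Among 12 immunoglobulin constant probes, 7 were higher in thymocytes and 0 were called. A probe for immunoglobulin kappa constant was at -2.73 ± 0.50 (-2.01 ± 0.69 in thymocytes against 0.73 ± 1.77 in fetal liver B cells, limma adjusted p = 0.0542). That difference was close in size to that of Trbc2 and of opposite sign. Its means were 1.86 in IgM+ and -0.40 in IgM- cells. Another probe, named Igkc, was at -0.64 ± 0.37 (adjusted p = 0.522).

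**Figure D2:**
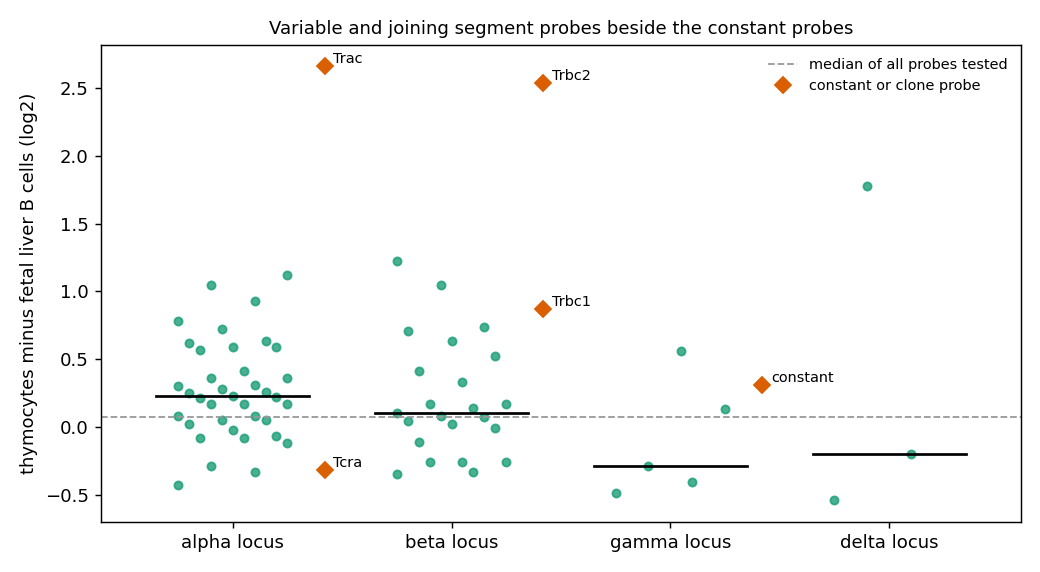
Difference between wt thymocytes and fetal liver B cells (log2, vertical axis) of each variable or joining segment probe (green points, with a bar at the median of the locus) and of the 5 chosen probes (orange diamonds), by receptor locus, with the median of all probes as a dashed line. Segment medians lie between -0.29 and 0.23, while Trbc2 stands at 2.54 and Trac at 2.66.

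The next question is how the constant genes change along thymocyte stages. No comparison of stages gave a call, for these probes or for any other. DP against DN3 had 0% of 52990 probes called by limma and 0 of 5 constant probes, with 1 of 5 at an unadjusted p under 0.05 and 2.05% of all probes there. SP4 and SP8 together against DN3 had 0% called, 0 of 5, with 1 of 5 and 2.95% of all probes at the unadjusted threshold. SP4 against DP had 0% called, 0 of 5, with 2 of 5 and 6.42% unadjusted; SP8 against DP had 0% called, 0 of 5, with 0 of 5 and 2.29% unadjusted; and SP4 against SP8 had 0% called, 0 of 5, with 0 of 5 and 5.18% unadjusted. The values below are descriptions of 3 arrays per stage. Where stages are said to lie apart, the share of all probes that do so was not counted. Groups this small can separate by chance.

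Trac had its highest levels in single-positive cells. It read -3.73, -3.80 and -3.61 in DN3, -4.99, -2.79 and -2.51 in wt DP, -1.18, -0.05 and -1.33 in SP4 and -1.16, -1.39 and -2.25 in SP8. All 6 single-positive arrays lay above all DN3 and all wt DP arrays, while DN3 and wt DP overlapped. SP cells against DN3 differed by 2.49 ± 1.01 (-1.23 ± 0.70 against -3.72 ± 0.10, adjusted p = 1), with 2.24 within slide 3 and 3.33 with slide as a fixed block. SP4 against wt DP differed by 2.58 ± 1.17 (adjusted p = 0.758) and SP8 against wt DP by 1.83 ± 1.17 (adjusted p = 1); with slide as a fixed block these were 4.97 and 3.92, and no slide held both stages. SP4 and SP8 overlapped (0.75 ± 1.17, adjusted p = 1).

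The beta constant genes ran in another order. Trbc2 averaged 2.80 ± 0.74 in DN3, 1.41 ± 0.37 in wt DP, 2.65 ± 0.64 in SP4 and 1.60 ± 0.54 in SP8 (SD, n = 3 each). The 3 wt DP arrays lay below all DN3 and all SP4 arrays and overlapped with SP8. Wt DP against DN3 differed by -1.39 ± 0.64 (adjusted p = 1), but by -0.54 on slide 2, where 1 DN3 array lay. SP4 against wt DP differed by 1.23 ± 0.64 (adjusted p = 0.811) and SP4 against SP8 by 1.05 ± 0.64 (adjusted p = 0.996), SP4 and SP8 overlapping and being 1.38 apart within slide 3. Trbc1 averaged 3.11 ± 0.45, 2.39 ± 0.10, 2.89 ± 0.36 and 2.38 ± 0.30 in DN3, wt DP, SP4 and SP8, the same order but for the last pair, which differed by -0.01 ± 0.38 (SP8 against wt DP).

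Over all 24 arrays the 2 beta probes correlated at Pearson's r 0.93 and Spearman's rho 0.93, and Trac with Trbc2 at 0.69 and 0.65 and with Trbc1 at 0.61 and 0.64. The Tcra clone was negatively correlated with each of the other 4 (r -0.53 to -0.28). These are descriptions over arrays that fall into 8 cell groups and share slides.

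Among the gamma genes, the stage with the high values was DN3, and it appeared in Trgc1 but not in the chosen gamma constant probe. The Trgc1 probe ending in a stop codon read 0.45, 1.58 and 1.43 in DN3, against -0.10 or less on each of the other 21 arrays, the highest of them IgM+ 19 and SP4 11. The other Trgc1 probe read 0.36, 1.05 and 1.41 in DN3, against -0.48 or less elsewhere. DN3 thus lay apart from each of the other 7 groups on both probes. How many of all probes set DN3 apart in this way was not counted. Wt DP against DN3 differed by -2.15 ± 0.46 and -3.27 ± 0.70 (adjusted p = 1 for both), with -1.45 and -2.69 on slide 2. SP cells against DN3 differed by -1.93 ± 0.39 and -2.69 ± 0.60 (adjusted p = 0.634 and 0.737), with -2.41 and -2.83 within slide 3 and -2.11 and -3.0 with slide as a fixed block. These probes were taken up by name after the rule, with their values known, and passed no test.

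**Figure D3:**
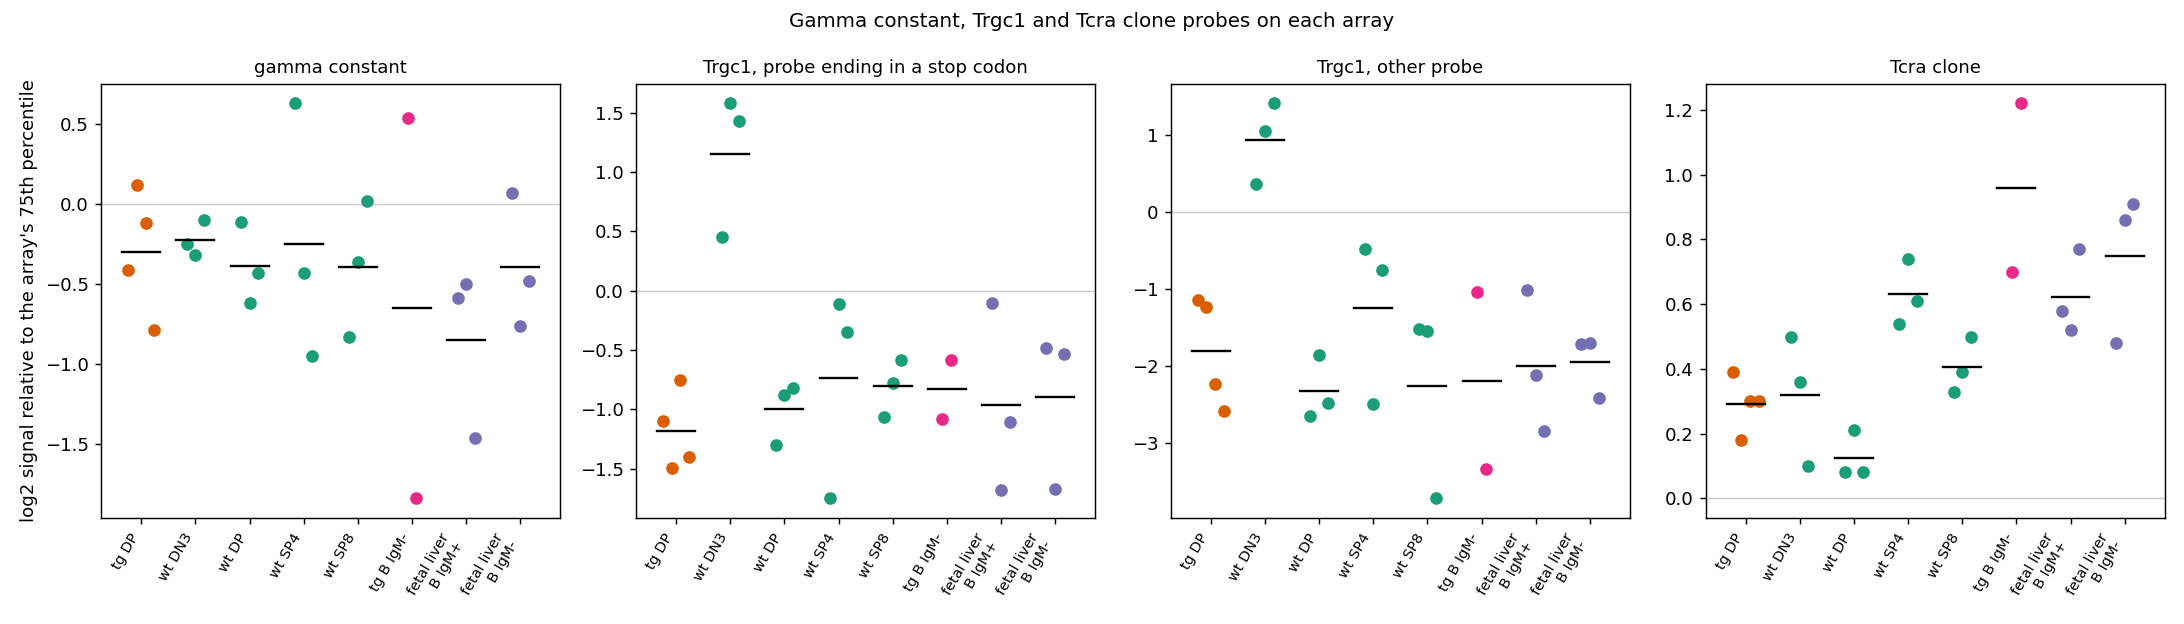
Log2 signal relative to the 75th percentile of the array (vertical axis, own scale in each panel) of the gamma constant probe, both Trgc1 probes and the Tcra clone, with 1 point per array and a bar at the group mean. Both Trgc1 probes are highest in DN3 (means 1.15 and 0.94), and the Tcra clone has its lowest mean, 0.12, in wt DP. On the gamma constant probe each group overlaps with the next in order of mean, while all DN3 arrays lie above all IgM+ arrays.

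The gamma constant probe read -0.25, -0.32 and -0.10 in DN3, -0.11, -0.62 and -0.43 in wt DP, 0.63, -0.43 and -0.95 in SP4 and -0.83, -0.36 and 0.02 in SP8. Group means over the whole series ran from -0.23 in DN3 to -0.85 in IgM+ B cells, and each group overlapped with its neighbour in that order. The DP difference from DN3 was -0.16 ± 0.49, with a 95% interval of -1.19 to 0.86. For the Trgc1 probes this interval was -3.11 to -1.2 and -4.74 to -1.81. Whether the probes differ from each other was not tested. Among the 5 gamma variable segments, T-cell receptor gamma, variable 4 was at -3.51 ± 0.53 in wt DP and -1.94 ± 0.61 in DN3 (-1.57 ± 0.59), and at -4.37 ± 0.45 in SP cells, where 5 of 6 arrays measured it (-2.44 ± 0.51, adjusted p = 0.654). T-cell receptor gamma, variable 3 was at -1.79 ± 0.72 in wt DP and 0.11 ± 0.48 in DN3 (-1.90 ± 0.98, adjusted p = 1). All 5 gamma segments had lower means in SP cells than in DN3, with a median difference of -0.37 beside -0.02 over all probes, and 0 were called.

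Recombinase genes had lower means in SP cells than in DN3 without passing the test: Rag1 was at -3.36 ± 0.82 in SP cells and -0.77 ± 0.59 in DN3 (-2.58 ± 0.57, adjusted p = 0.720). Dntt, which adds bases at the joins, was at -0.42 ± 0.14 in the same comparison, and all 3 assembly genes had lower means in SP cells. Of the 5 receptor partners, 2 were higher in SP cells than in DN3 and 0 were called. Cd3g differed most by its statistic, at -0.69 ± 0.31, and then Cd247 at -0.50 ± 0.51 (adjusted p = 1 for both).

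The Tcra clone read 0.50, 0.36 and 0.10 in DN3, 0.08, 0.21 and 0.08 in wt DP, 0.54, 0.74 and 0.61 in SP4 and 0.33, 0.39 and 0.50 in SP8. SP4 lay above wt DP and SP8 without overlap, by 0.50 ± 0.17 (adjusted p = 0.608) and 0.22 ± 0.17 (adjusted p = 1). This probe thus ranked SP4 above wt DP as the Trac probe did, yet its highest means were those of tg B and IgM- B cells (0.96 and 0.75), while Trac was lowest in tg B and IgM+ B cells.

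The series title concerns components of the progenitor niche, and tg DP against wt DP compares DP cells of both kinds of thymus. For the beta and alpha constant genes the 4 tg DP arrays spread beyond the wt DP values on both sides. Limma called 0% of 52990 probes and 0 of 5 constant probes, with 0 of 5 and 3.21% of all probes at an unadjusted p under 0.05. Trbc2 read 0.24, 2.43, 1.73 and 3.77 in tg DP (4, 6, 6A and 6B), against 0.99, 1.59 and 1.66 in wt DP. Tg DP thus held both the lowest and the highest Trbc2 value of any thymocyte array. The difference was 0.63 ± 0.59 (2.04 ± 1.47 against 1.41 ± 0.37, 95% interval -0.62 to 1.88, adjusted p = 1), or 1.23 on slide 2, which leaves out tg DP 4, and -0.02 with samples of 1 title number averaged. On slide 2 the tg DP arrays were 6, 6A and 6B alone, which share a title number and may not be separate animals.

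Trbc1 read 1.91, 3.18, 2.32 and 3.89 in tg DP, against 2.28, 2.43 and 2.46 in wt DP (0.43 ± 0.35 above wt DP, adjusted p = 1). Trac read -7.53, -1.91, -5.23 and -0.83 in tg DP, against -4.99, -2.79 and -2.51 in wt DP, and was not well above background on tg DP 4 and 6A. Tg DP 6B and then 6 had the highest values of Trac, Trbc1 and Trbc2 among the 4 tg arrays, and these samples share a title number with 6A. The Trac difference was -0.45 ± 1.09 (-3.88 ± 3.07 against -3.43 ± 1.36, adjusted p = 1), with 0.77 on slide 2 alone, which leaves out tg DP 4, and -1.82 with samples of 1 title number averaged. The gamma constant probe read -0.41, 0.12, -0.12 and -0.79 in tg DP and overlapped with wt DP, as did the Tcra clone. These probes differed by 0.09 ± 0.46 and 0.17 ± 0.16 (adjusted p = 1 for both). All 5 receptor partners had higher means in tg DP, with a median of 0.14 beside -0.075 over all probes, and 0 were called. So had 3 of 3 assembly genes (median 0.25) and 4 of 4 thymic epithelium markers (median 0.17), also with 0 called; the part of other cells was not tested. Among the partners the strongest statistic was that of Cd247, at 1.43 ± 0.55 (-1.01 ± 0.67 against -2.44 ± 0.35, adjusted p = 1).

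**Figure D4:**
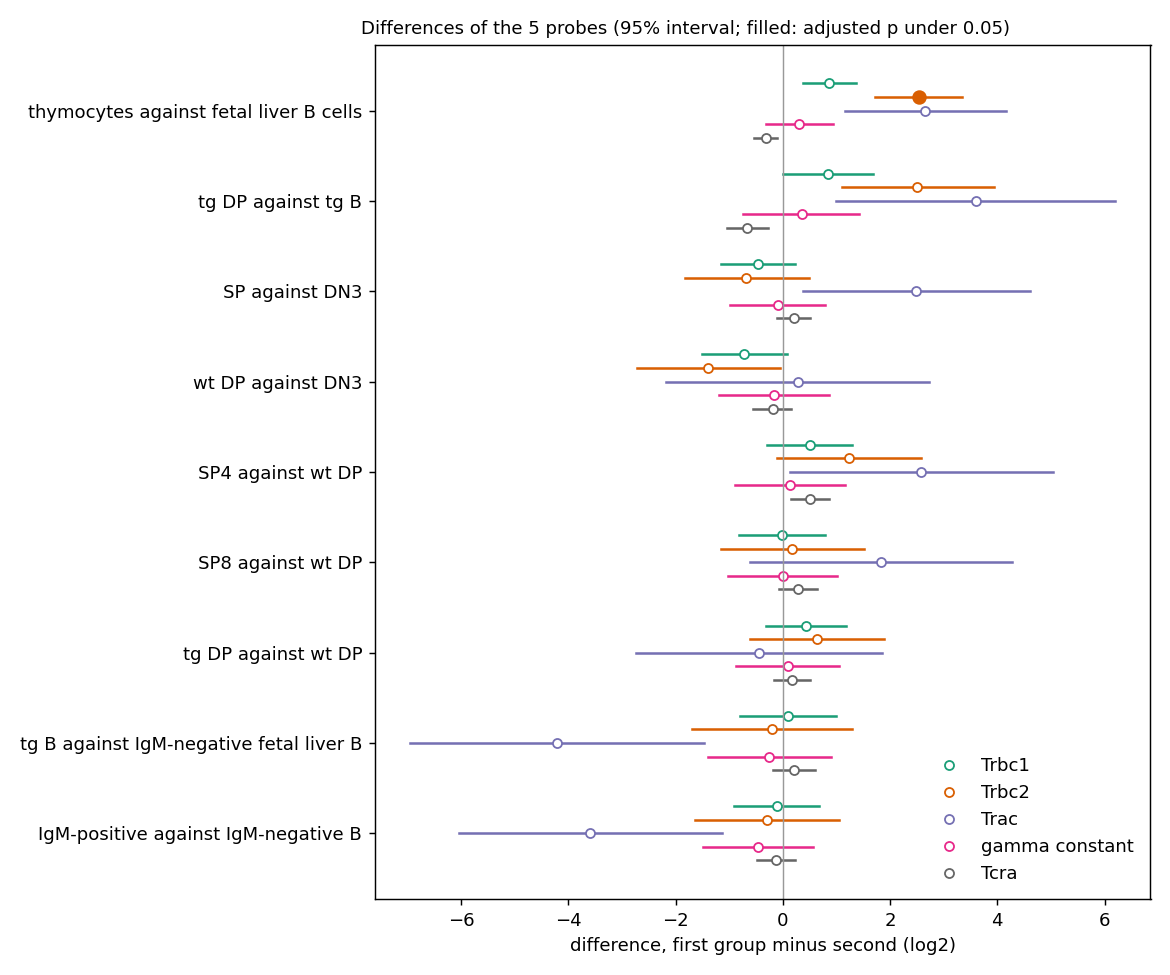
Difference between the first and the second group of each comparison (log2, horizontal axis) for the 5 chosen probes, with the 95% interval of the limma fit and filled points at an adjusted p under 0.05. The 1 filled point is Trbc2 in thymocytes against fetal liver B cells (2.54, interval 1.72 to 3.35), and the Trac intervals are the widest in each comparison.

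B cells were compared by source and by surface IgM. Trac did not overlap between the groups in either comparison, but neither difference was called. The share of all probes without such overlap was not counted, and groups this small can separate by chance. In tg thymic B cells Trac read -7.61 and -7.34, against -3.76, -3.43 and -2.62 in IgM- fetal liver B cells. No tg B array measured it above background and all 3 IgM- fetal liver arrays did. The limma fit gave a difference of -4.21 ± 1.3 (adjusted p = 0.162). With dim arrays set to their lowest signal well above background, Trac was 4.3-fold lower in tg B, which is not a lower limit. In this comparison 0.034% of 52989 probes were called and 0 of 5 constant probes, with 1 of 5 and 16.5% of all probes at an unadjusted p under 0.05. By direction, 0.0113% were called higher and 0.0226% lower. The median difference over all probes was -0.27. Both groups lay on slide 4. Without tg B 23, the dimmest array, the Trac difference was -4.35 ± 1.70 (adjusted p = 0.551); with quantile scaling it was -2.78 and with normexp background -0.96.

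The beta constant genes overlapped between these groups. Trbc2 read -0.96 and 0.02 in tg B, against -0.27, -0.07 and -0.48 in IgM- fetal liver B cells (-0.20 ± 0.71, 95% interval -1.69 to 1.3, adjusted p = 0.905). Trbc1 read 1.93 and 2.01 in tg B, against 1.71, 1.88 and 2.03 (0.10 ± 0.42, adjusted p = 0.921). Gamma constant values were 0.54 and -1.84 in tg B, the highest value of all B cell arrays and the lowest of the series, and the Tcra clone read 0.70 and 1.22, with the highest value of the series on tg B 23. Of 68 tested segments 16 were higher in tg B, with a median of -0.40, and 0 were called.

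IgM+ against IgM- fetal liver B cells had 0% of 52987 probes called by limma and 0 of 5 constant probes, with 1 of 5 and 7.41% of all probes at an unadjusted p under 0.05, and a median of -0.177 over all probes. Trac read -7.32, -5.76 and -7.50 in IgM+ cells, none well above background. The difference from IgM- cells was -3.59 ± 1.17 in the limma fit (adjusted p = 0.538). It was -3.36 within slide 4 and -0.99 with normexp background. With dim arrays set as above, Trac was 5.1-fold lower in IgM+ cells, which is not a lower limit. Trbc2 and Trbc1 differed by -0.30 ± 0.64 and -0.11 ± 0.38 (adjusted p = 0.946 and 0.968). Rag2 was well above background on 1 of 3 IgM+ arrays and on all 3 IgM- arrays, and did not pass the test (adjusted p = 0.624).

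Within tg thymus, DP cells against B cells gave the other view of lineage, on slides that the 2 cell types did not share. Here 1.45% of 52989 probes were called and 0 of 5 constant probes, with 0.966% called higher and 0.487% lower, 4 of 5 and 19.4% of all probes at an unadjusted p under 0.05, and a median of 0.179 over all probes. Those 4 were Trbc2, Trac and Trbc1, higher in tg DP, and the Tcra clone, lower. Trbc2 in tg DP (0.24 to 3.77) lay above tg B (-0.96 and 0.02) without overlap, by 2.51 ± 0.67 (adjusted p = 0.0642). How many of all probes separate these groups was not counted, and groups this small can separate by chance. Trac was well above background on 2 of 4 tg DP arrays and on 0 of 2 tg B arrays, and the groups overlapped, with tg DP 4 at -7.53 between both tg B values. Its difference of 3.6 ± 1.24 in the fit (adjusted p = 0.125) therefore rests on values below background, and was 1.28 ± 0.57 with normexp background. Trbc1 was 0.85 ± 0.40 higher (adjusted p = 0.256), and the Tcra clone, at 0.39, 0.18, 0.30 and 0.30 in tg DP, lay below both tg B arrays by -0.66 ± 0.18 (adjusted p = 0.0660). Without tg DP 4, Trbc2 and Trac passed (3.11 and 4.82, adjusted p = 0.0220 and 0.0308), and without tg B 22, Tcra and the gamma constant probe passed (-0.92 and 1.54, adjusted p = 0.00584 and 0.046), where tg B 23 stood alone for its group. With slide as a fixed block Trbc2 was at 0.64 ± 1.06.

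Whether the difference of tg DP from wt DP departed from that of tg B from IgM- fetal liver B cells was tested as an interaction. The DP samples differ in genotype within the thymus, while the B cell samples differ in organ and genotype at once, so these cannot be told apart. Limma called 0.00566% of 52988 probes (0.00377% higher, 0.00189% lower) and 0 of 5 constant probes, with 1 of 5 and 9.23% of all probes at an unadjusted p under 0.05. The DP difference minus the B cell one was 0.82 ± 0.93 for Trbc2 (adjusted p = 0.805) and 0.33 ± 0.55 for Trbc1 (adjusted p = 0.874). For Trac, which no tg B array and 2 of 4 tg DP arrays measured, the size of this term is not given (adjusted p = 0.521).

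Genes whose pattern was most like that of a constant gene were sought among 30298 other probes with a gene symbol by Pearson's r over all 24 arrays, as a description. For Trbc2 these were Tcf7 (r 0.896), Itpkb (0.812), Pla2g10 (0.801), Plac8 (0.799) and Cd27 (0.797). Tcf7, an early T lineage transcription factor, and Cd27, a receptor of the tumour necrosis factor family on lymphocytes, were also the first pair for Trbc1 (0.885 for Tcf7), followed by Itpkb, an inositol phosphate kinase, Rps7, a ribosomal protein, and the long non-coding RNA Neat1. Mean Tcf7 levels ran in the order SP4 (0.79), DN3 (0.72), tg DP (-0.65), wt DP (-1.06) and SP8 (-2.38), and were -5.32, -5.32 and -4.23 in tg B, IgM+ and IgM- B cells. For Trac the likest genes were Epm2a (0.860), Epha1 (0.853), Gm525 (0.845), Ankdd1b (0.832) and Prmt2 (0.823), none of them shared with the beta genes. Trac was not well above background on any tg B or IgM+ array, nor on 2 of 4 tg DP arrays. Its r values therefore rest in part on unmeasured values, and likeness without those arrays was not computed. Epm2a, a glycogen-linked phosphatase, was low in tg B and IgM+ cells, at -6.90 and -7.04, and at -2.72 in IgM- cells, as Trac was.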

How the data were processed

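Per the labels' protocols, sorted cells were lysed at once, mRNA was bound to beads, reverse transcribed, amplified globally by PCR and labelled with Cy3, so signals come from amplified cDNA. The deposited files give processed intensities per spot of array design 028005, per the file headers made by Feature Extraction 10.7.3.1, which subtracted background and a spatial trend. The authors' deposited series matrix holds log2 values with 1 distribution (column medians 7.93) and no centring of genes; its program is not stated, and it was used only as an alternative.

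Of 62976 spots 3671 were controls, left out; 248 values marked non-uniform were treated as missing and 0 were saturated. Spots of a probe were averaged to 55681 probes, in log2 of processed intensity minus the 75th percentile of the array. Kept were 52991 probes (95.2%) that every array of some group measured well above background. limma 3.58.1 in R 4.3.3 (lmFit, eBayes, 8 group means, no covariate) tested 11 comparisons, with Benjamini-Hochberg adjustment over all kept probes. The fit was tested on simulated data. Alternatives were background correction, scaling, filter, slide as a block, array weights, averaging of shared title numbers and leaving out arrays.

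The probes, gene lists and comparisons were chosen with earlier results of these data known. Named are all 5 probes and, of each list, genes that were called or otherwise those with the strongest statistics, plus a few for context. A list gene is its brightest probe. Trac folds against groups that did not measure it compare group means. Each dim array was set to its lowest signal well above background unless the probe itself read higher. Such folds depend on that signal and are not lower limits. The number of arrays limits precision.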

Additional observations from a re-analysis of the deposited data

How the results depend on the processing

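Of the 11 counts of constant probes called, 9 were the same in all fits. For thymocytes against fetal liver B cells the count of 1 became 0 with slide as a fixed block, 0 with slide as a random block and 2 in a fit of the compared groups alone, and lay between 0 and 1 when 1 array was left out. For tg DP against tg B the count of 0 lay between 0 and 2 when 1 array was left out. Trbc2 in thymocytes against B cells stayed positive in all 30 alternative fits (adjusted p 0.00394 to 0.949). Over all probes, the 26 calls of that comparison ran from 0 to 142 over the other settings and from 0 to 193 without 1 array, the 770 of tg DP against tg B from 0 to 1080 and from 29 to 9269, the 18 of tg B against IgM- from 0 to 97 and from 7 to 7981, and the 3 of the interaction from 0 to 4 and from 0 to 4193. Where no probe was called, other settings gave at most 51 for SP4 against wt DP, 2 for SP against DN3, 3 for SP4 against SP8, 8 for tg DP against wt DP and 9 for IgM+ against IgM-, and leaving out 1 array gave at most 16 in any of these. Fits with 1 tg B array assume that it varies like the other groups.

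Values that changed sign were not called, and the causes were not tested. For Trac in tg DP against wt DP the values were 0.27 with normexp background, 0.30 with slide as a fixed block, -1.82 (same sign) with shared title numbers averaged, 0.77 without tg B 23, IgM+ 21 and tg DP 4 together (chosen after seeing the data) and -1.46 to 0.77 when 1 array was left out. Trbc2 there was at -0.02 with shared title numbers averaged. For the gamma constant probe the value was -0.22 in thymocytes against B cells with slide as a fixed block. In tg DP against tg B it was at -0.18 with that block, -0.81 without those 3 arrays and -0.84 to 1.54 without 1 array. No paired analysis was possible because no title number is shared between groups. With 2 to 4 arrays per group, Trac not well above background on 7 arrays and slides tied to groups, small differences of these probes could not be shown.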
